A study of Mus musculus with 4 samples.

Results

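Proliferation genes are the 30 genes whose transcripts are commonly read as a sign of dividing cells, and they were followed here in RNA from mouse skin cells that the labels call CD4+ T cells. They were taken by symbol from a fixed list, and all 30 were found among the 55335 genes of the deposited tables. By role, 11 act in S phase, when DNA is copied, 17 act in mitosis or the approach to it, and 2 (Stmn1 and Hmgb2) were placed in neither class. The series holds 4 RNA-seq libraries, 2 per genotype. Control libraries came from Mettl3fl/fl mice, and knockout libraries from Mettl3fl/fl;Cd4-Cre mice, in which Cre recombinase is driven by the Cd4 promoter, which T cells switch on during their development. The Mettl3 protein methylates adenosines in RNA (the N6-methyladenosine mark). All mice, controls included, were 8 to 12 weeks old and had received imiquimod cream (5%) on the back for 5 days, in a daily amount of 15 or 62.5 mg that the labels do not assign to single mice. Imiquimod activates Toll-like receptor 7 and gives a psoriasis-like inflammation. How many mice made up a library is not stated either, so p-values measure only the spread between these libraries.

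A dividing cell first builds nucleotides and loads and fires replication origins, and later condenses, aligns and separates its chromosomes. Genes of the first stage are driven mainly by E2F factors, and genes of the second by the MuvB complex with B-MYB and FOXM1, which acts through a promoter element called CHR (cell cycle genes homology region), often beside CCAAT boxes. Resting T cells hold few of these transcripts, and activated T cells many. Basal keratinocytes, which renew the epidermis, also divide, and do so more in psoriasis-like skin.

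Promoters of 4 members are shown because these members had the highest mean CPM among those of their class whose knockout libraries both lay below both controls. They are RefSeq sequences of GRCm38.p6, 300 bases each, from 250 bases before to 50 after the transcription start, read 5′ to 3′ along the gene. Capitals mark matches on either strand to the CHR element (TTTGAA or TTCGAA), the CCAAT box (CCAAT) and the E2F site (TTCCCGC or TTGGCGC). Ccnb2 lies on the minus strand at chr9:70421505-70421804, Cenpf on the minus strand at chr1:189688037-189688336, Rrm2 on the plus strand at chr12:24708004-24708303, and Mcm7 on the minus strand at chr5:138171834-138172133. Mcm7 has 2 promoters in the table, of which the upstream one is shown, and near the 3′ end of the window an E2F match and a CCAAT match overlap in 1 run of capitals.
Ccnb2: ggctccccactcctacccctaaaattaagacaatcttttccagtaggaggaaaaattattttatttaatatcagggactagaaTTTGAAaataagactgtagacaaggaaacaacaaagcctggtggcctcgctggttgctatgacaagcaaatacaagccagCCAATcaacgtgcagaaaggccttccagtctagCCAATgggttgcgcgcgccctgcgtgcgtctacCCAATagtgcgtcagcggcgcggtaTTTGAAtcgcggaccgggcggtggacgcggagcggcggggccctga
Cenpf: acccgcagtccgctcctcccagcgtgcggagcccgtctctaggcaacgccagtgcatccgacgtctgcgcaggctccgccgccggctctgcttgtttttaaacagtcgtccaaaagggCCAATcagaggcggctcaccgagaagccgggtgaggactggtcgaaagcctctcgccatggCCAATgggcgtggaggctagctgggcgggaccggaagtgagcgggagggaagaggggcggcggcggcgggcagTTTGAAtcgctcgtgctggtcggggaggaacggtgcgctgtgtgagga
Rrm2: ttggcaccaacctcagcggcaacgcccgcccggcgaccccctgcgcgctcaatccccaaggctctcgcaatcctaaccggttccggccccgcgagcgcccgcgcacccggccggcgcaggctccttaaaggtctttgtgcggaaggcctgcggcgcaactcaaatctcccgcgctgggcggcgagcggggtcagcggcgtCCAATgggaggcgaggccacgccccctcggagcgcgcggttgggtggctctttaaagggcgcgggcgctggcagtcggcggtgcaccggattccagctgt
Mcm7: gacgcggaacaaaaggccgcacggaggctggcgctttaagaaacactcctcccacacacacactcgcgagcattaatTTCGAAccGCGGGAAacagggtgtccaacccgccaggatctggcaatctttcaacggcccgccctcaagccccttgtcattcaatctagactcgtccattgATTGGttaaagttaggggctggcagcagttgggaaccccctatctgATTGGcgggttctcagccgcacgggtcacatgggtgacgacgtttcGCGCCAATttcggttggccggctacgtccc

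Mitotic members mostly had a CHR match in this window, and S-phase members mostly did not. Of the 30 members, 26 had a promoter in the table (Mcm4, Ccna2, Aurkb and Stmn1 did not). A CHR match was found in 11 of 15 mitotic members (73.3%) and in 2 of 10 S-phase members (20%), against 21.7% of all 27025 genes in the table. All 11 of those mitotic members also had a CCAAT match, a combination found in 8.61% of all genes. A CCAAT match, with or without a CHR match, was in 13 of 15 mitotic and 8 of 10 S-phase members, against 41.1% of all genes. The E2F letters were in 5 of 10 S-phase members (50%) and 3 of 15 mitotic members (20%), against 7.79% of all genes. In the printed promoters, the CHR match of Cenpf starts 2 bases and the downstream one of Ccnb2 starts 4 bases after the transcription start, while Rrm2 holds 1 CCAAT match and neither of the other motifs. These are letter matches only, and no binding was measured.

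**Figure D1:**
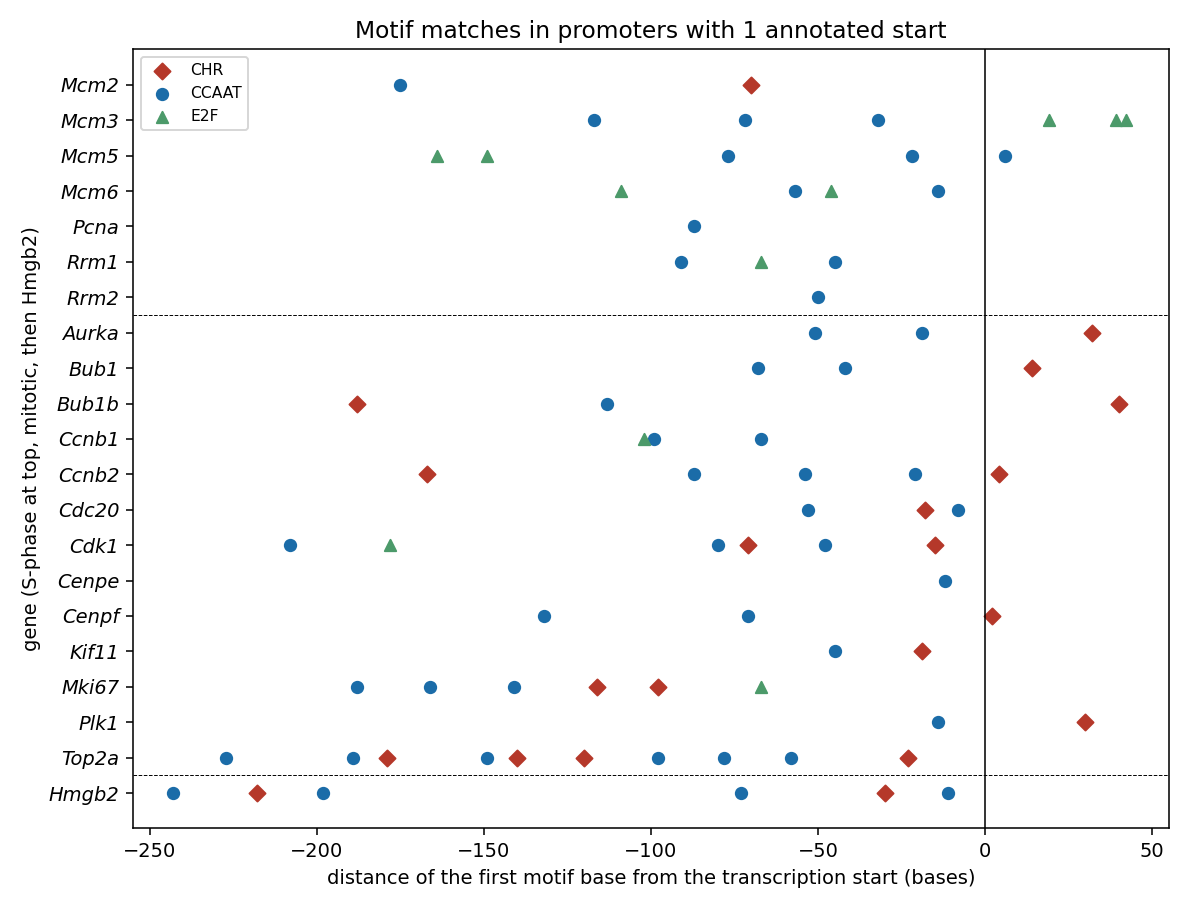
Motif matches in the promoters of members with 1 annotated start and at least 1 match, by distance in bases from the transcription start (0), with symbols for CHR, CCAAT and E2F. CHR matches are found in the mitotic rows except Ccnb1 and Cenpe, in Hmgb2, and among the S-phase rows in Mcm2.

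The libraries held between 3614418 and 4537006 counted fragments, and control 2 stood apart from the others. It had fragments of 11424 genes, against 16273 to 20100 in the other libraries. Its correlation with them across all tested genes was 0.586 to 0.602 (Pearson r of log2(CPM + 1), over genes, which are not independent of each other), whereas the other 3 correlated at 0.810 to 0.863 with one another. It also held 7.98% mitochondrially encoded fragments, against 2.29% to 4.39%. Levels are given as CPM, the fragments of a gene scaled to a common library size with TMM factors. Where values are listed, controls come before knockouts and library 1 before library 2. In these units 3 fragments, the limit that a count of 0 allows, correspond to 0.655 to 0.792 CPM. Such limits and the intervals below cover counting error only. Mettl3 itself had 195, 49, 121 and 158 fragments in control 1, control 2, knockout 1 and knockout 2. Counted fragments come only from exons that 1 transcript alone carries, and the place of the deletion in the gene is not stated, so Mettl3 does not check the labels.

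The markers of the labelled cell type were not at like levels in all libraries. The 16 T cell markers summed to 1528 and 376 CPM in controls and to 470 and 263 CPM in knockouts. Cd4 had 777, 0, 420 and 9 fragments in control 1, control 2, knockout 1 and knockout 2, and Cd3e had 282, 1, 80 and 42. Cd247, Lck and Cd5 were at 0 in both control 2 and knockout 2, and Zap70 was also at 0 in control 2. The 14 keratinocyte markers were led by Perp, and summed to 2231 and 28090 CPM in the controls and to 3022 and 1419 CPM in the knockouts. The 15 macrophage and monocyte markers, led by Lyz2, summed to 21207 and 10365 CPM in controls and to 33436 and 30293 in knockouts. In such bulk libraries, fewer dividing cells and less RNA per dividing cell cannot be told apart, and which cells supplied the proliferation transcripts was not tested.

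The 30 members together held 0.143% (exact binomial 95% interval 0.140 to 0.147) and 0.189% (0.184 to 0.193) of the fragments of the controls, and 0.117% (0.114 to 0.120) and 0.0796% (0.0769 to 0.0823) of those of the knockouts. Both controls thus had a larger share than both knockouts, and knockout 2 had the smallest. Of the 30, 29 and 18 had a fragment in controls 1 and 2, and 28 and 25 in knockouts 1 and 2. Of the 24 members that passed the filter on low counts, 6 (25.0%) were at 0 in control 2, against 32.7% of all tested genes. The exons show the same thinning: of 236 exon entries of members with any fragment, 181 and 76 had one in controls 1 and 2, and 199 and 135 in knockouts 1 and 2.

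**Figure D2:**
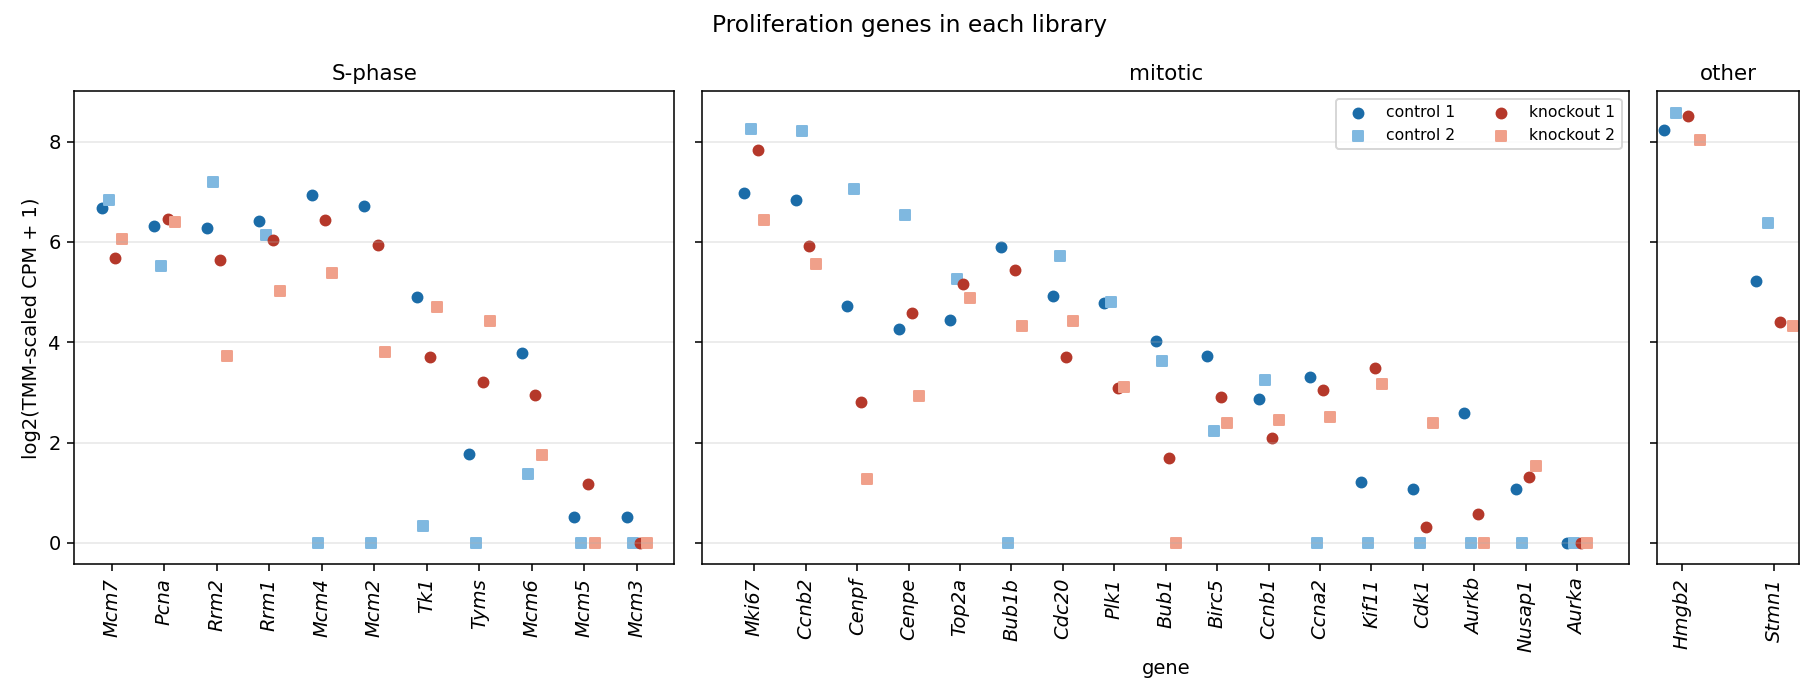
Level of each of the 30 members in each library, as log2(TMM-scaled CPM + 1), by class and ordered by mean level, with 1 point per library. Control 2 has the highest point for Mki67, Ccnb2, Cenpf and Rrm2 and is at 0 for Mcm4, Mcm2 and Bub1b.

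S-phase and mitotic members stood in different proportions in control 2 than in the other libraries. The 11 S-phase members summed to 612 and 375 CPM in the controls and to 426 and 295 CPM in the knockouts. The 17 mitotic members summed to 467 and 962 CPM in the controls and to 446 and 243 CPM in the knockouts. Control 1 thus had the highest S-phase level, control 2 the highest mitotic level, and knockout 2 the lowest of both. In control 2, 6 of 11 S-phase and 10 of 17 mitotic members had any fragment. The other libraries had fragments of 9 to 11 and 14 to 16. Mcm2 and Mcm4 were at 0 in control 2, while Mki67, Ccnb2 and Cenpf were at 304.1, 293.8 and 132.8 CPM. Its proportions thus describe only the members counted there.

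As a share of S-phase plus mitotic fragments, S-phase members made up 56.7% (exact binomial 95% interval 55.3 to 58.1) and 28.1% (26.8 to 29.3) of control libraries, and 48.9% (47.2 to 50.5) and 54.8% (52.7 to 56.9) of knockout libraries. The knockouts lay between the controls. The log2 ratio of the summed levels was 0.39 and -1.36 in controls and -0.07 and 0.28 in knockouts, a mean difference (knockout minus control) of 0.59. Without control 2 the difference was -0.28, and without control 1 it was 1.46, so its sign rested on control 2. With 2 against 2 libraries, an exact permutation test cannot go below p = 0.333, and none was run. The library order of the S-phase sum was also that of the T cell marker sum. The order of the mitotic sum differed from that of the keratinocyte marker sum only for control 1 and knockout 1. The T cell order was not that of the mitotic sum, and the keratinocyte order was not that of the S-phase sum. The sums of the other marker lists followed neither order. The part of the markers in the result was not tested.

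**Figure D3:**
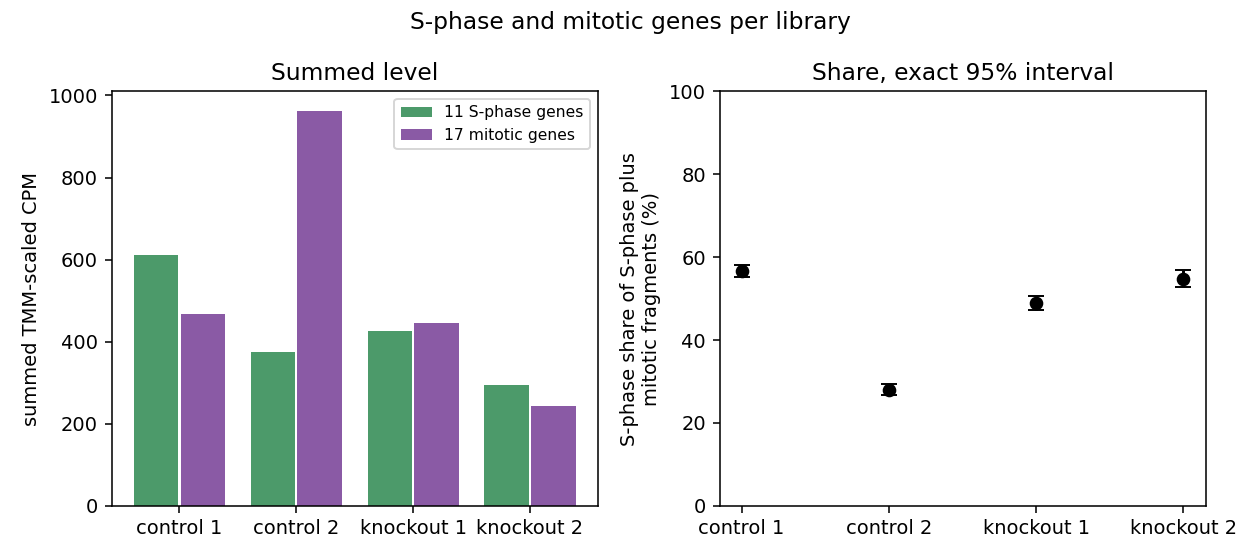
Left, summed TMM-scaled CPM of the 11 S-phase and 17 mitotic members in each library; right, S-phase fragments as a percentage of S-phase plus mitotic fragments, with exact 95% binomial intervals for counting error. Control 2 is the library in which mitotic members exceed S-phase members by most, at 28.1% S-phase.

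No member passed the threshold between genotypes. By edgeR's quasi-likelihood test with Benjamini-Hochberg adjustment over 12434 genes, 0 genes were called at an adjusted p of 0.05 (0% of those tested), and 187 (1.5%) had an unadjusted p under 0.05. Of the 24 tested members, 1 was among the latter. That member was lower in the knockouts, as were 0.627% of all tested genes at that p. DESeq2 called 17 genes (0.137%) and limma-voom 0. Without a filter on low counts edgeR called 27 genes (0.11%), without knockout 1 it called 2 (0.0136%) and without knockout 2 it called 4 (0.027%). No member was called in any of these. The adjusted p of every tested member was 0.9997. The median log2 fold change (knockout over control) was -0.51 over 9 tested S-phase members and -0.93 over 13 tested mitotic members, beside 0.20 over all tested genes. The S-phase median was 1.57 without control 1 and -0.82 without control 2, beside 1.72 and 0.05 over all tested genes. The mitotic median lay between -1.12 and -0.86 with any 1 library left out, while that of all tested genes lay between -0.01 and 1.72.

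Of all 30 members, 10 had both knockouts below both controls, 4 had both above, and in 16 the groups overlapped. Among the 12434 tested genes, 11.2% lay below in this way and 19.5% above. All 10 below were among the 24 tested members and included 3 S-phase members (Rrm1, Rrm2 and Mcm7), 6 mitotic members (Ccnb1, Ccnb2, Cdc20, Bub1, Plk1 and Cenpf) and Stmn1. Members reach the test only if enough libraries hold them, so these counts describe the members and are no test of them. Among tested markers, 6 of 16 T cell and 4 of 13 keratinocyte genes had both knockouts below both controls, and 12 of 15 macrophage and monocyte genes had both above. Their part in the members' values was not tested.

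Ribonucleotide reductase, which makes deoxynucleotides, has the large subunit Rrm1 and the small subunit Rrm2. Rrm2 (ENSMUSG00000020649, chromosome 12, 24708241 to 24714146, plus strand) was at 76.2 and 144.9 CPM in controls and at 48.9 and 12.3 CPM in knockouts. Both knockouts lay below both controls, and knockout 2 was the lowest. Of the fragments of Rrm2, 87.4% lay in 1 exon entry, which held 295, 498, 164 and 45 in the same library order. Of its 6 exon entries with fragments, 4 had both knockouts below both controls, and in 2 the groups overlapped. The log2 fold change was -1.85 (standard error 1.04; adjusted p = 0.9997, edgeR), and was -3.10 without knockout 1 and -1.09 without knockout 2. Rrm1 was at 84.7, 69.7, 64.9 and 31.4 CPM in the same library order. Its groups did not overlap either, but control 2 and knockout 1 differed little (log2 fold change -0.68, standard error 0.87). The fold change was -0.18 without knockout 2 and -1.26 without knockout 1. Of the 14 exon entries of Rrm1 with fragments, 4 had both knockouts below both controls, and in 10 the groups overlapped.

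The MCM2-7 proteins form the ring-shaped helicase that opens DNA at replication origins. Mcm7 (ENSMUSG00000029730, chromosome 5, 138164583 to 138172422, minus strand) was at 101.3 and 114.0 CPM in controls and at 50.4 and 65.7 CPM in knockouts. The groups did not overlap, and the log2 fold change of -0.89 (standard error 0.74; adjusted p = 0.9997, edgeR) stayed between -1.02 and -0.67 with 1 library left out. Mcm4 was at 121.6, 0, 85.9 and 40.7 CPM and Mcm2 at 104.6, 0, 60.4 and 13 CPM in that order. For both, control 1 was highest and control 2 had no fragment, so the groups overlapped. The fold change of Mcm2 was -1.52 without control 2 and 10.23 without control 1, the latter against a library at 0.

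Mcm6 was low, at 12.9, 1.58, 6.74 and 2.36 CPM. Mcm3 and Mcm5, with 2 and 7 fragments over all libraries, were not tested. The subunits differ in how many of their bases can be counted. Mcm3 has 0.321 kb covered by a single exon entry, Mcm5 1.389 kb and Mcm7 2.15 kb. Per kilobase of such sequence, mean levels were 38.5 CPM for Mcm7, 23.3 for Mcm4, 8.12 for Mcm2, 3.32 for Mcm6, 0.340 for Mcm3 and 0.303 for Mcm5. Levels of different genes can thus be compared only roughly.

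Pcna, the sliding clamp that holds DNA polymerase on its template, had its groups in the opposite order to Rrm2. It was at 78.6 and 44.6 CPM in controls and at 87.1 and 83.5 CPM in knockouts, with 44.2% of its fragments in exons of retained-intron transcripts. Both knockouts lay above both controls, by little over control 1 (log2 fold change 0.47, standard error 0.80). The fold change was 0.11 without control 2 and 1.00 without control 1. In the only exon of a protein-coding transcript of Pcna with fragments, the groups overlapped, at 46.1, 29.0, 48.7 and 40.4 CPM. Both knockouts lay above both controls in a retained-intron exon, at 31.9, 15.6, 33.2 and 43.0 CPM. Tyms, which makes thymidylate, was at 2.40, 0, 8.24 and 20.6 CPM. Its log2 fold change of 3.54 (standard error 2.37; adjusted p = 0.9997, edgeR) rests on 131 fragments, 95.4% of them in a retained-intron exon. The fold change of Tyms was 2.56 without control 2 and 8.87 without control 1, the latter against a lone control at 0. Tk1, the thymidine kinase of the salvage route, was at 29.0, 0.264, 12.0 and 25.1 CPM, with 94.8% of fragments in such exons and overlapping groups.

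Mki67, which encodes the proliferation marker Ki-67, had the most fragments of the mitotic members and did not separate the genotypes. Mki67 (ENSMUSG00000031004, chromosome 7, 135689784 to 135716361, minus strand) was at 124.4 and 304.1 CPM in controls and at 228.1 and 85.8 CPM in knockouts. The knockouts held both the second highest and the lowest value. The log2 fold change was -0.45 (standard error 0.81), and 0.33 without control 2. Its largest exon (chromosome 7, 135694232 to 135701067) held 287, 631, 644 and 176 fragments in the same library order. Top2a, the topoisomerase that untangles chromosomes, varied less, at 20.7, 37.5, 34.7 and 28.6 CPM (log2 fold change 0.12, standard error 1.08). Control 2 again was highest, and knockout 1 lay close to it.

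Among the cyclins that activate Cdk1, Ccnb2 was lower in both knockouts than in both controls. Ccnb2 (ENSMUSG00000032218, chromosome 9, 70407692 to 70421547, minus strand) was at 112.6 and 293.8 CPM in controls and at 59.9 and 45.9 CPM in knockouts. Control 2 was highest by far, but control 1 also lay above both knockouts. The log2 fold change was -1.94 (standard error 0.79; unadjusted p = 0.0543, adjusted p = 0.9997, edgeR), and it was -1.10 without control 2 and -2.41 without control 1.

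All 9 exons of Ccnb2 could be counted, since each is listed once in the annotation. In 8 of them both knockouts lay below both controls. Exon 6 (chromosome 9, 70410655 to 70410891) held fragments at 25.5 and 93.4 CPM in controls and at 12.7 and 7.56 CPM in knockouts. The first exon (70421417 to 70421547), at 1.75, 1.85, 2.75 and 4.49 CPM, had the knockouts above the controls. Exons of 1 gene share their libraries and are not replicates.

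**Figure D4:**
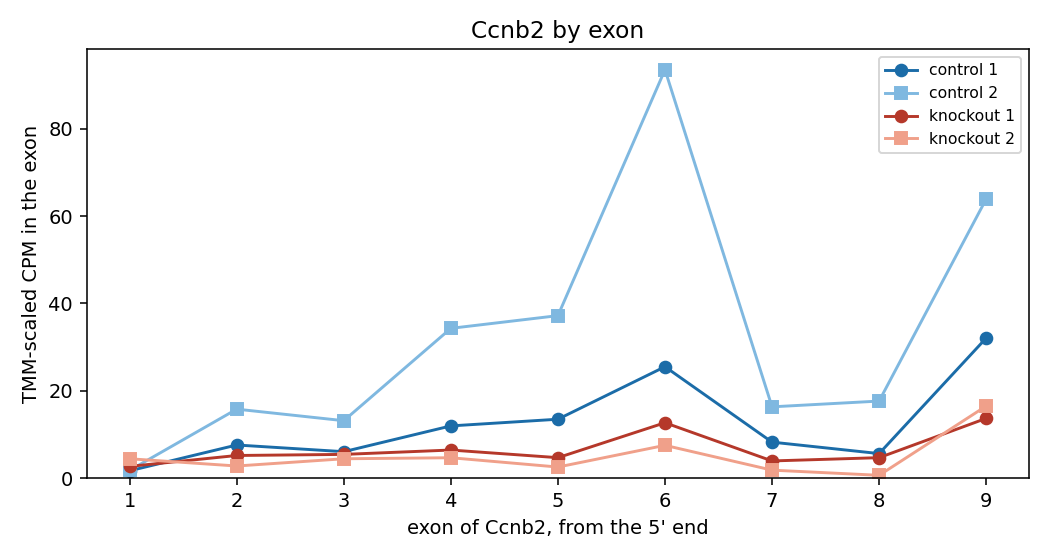
TMM-scaled CPM in each of the 9 exons of Ccnb2, numbered from the 5′ end, with 1 line per library. The knockout lines run below the control lines from exon 2 to exon 9 and above them in exon 1.

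Ccnb1, cyclin B1, was at 6.33 and 8.45 CPM in controls and 3.24 and 4.49 in knockouts. Its groups did not overlap, but all 93 of its fragments lay in retained-intron exons. Ccna2, cyclin A2, which acts from S phase into mitosis, was at 8.95, 0, 7.24 and 4.73 CPM, with overlapping groups. Cdk1, the kinase itself, had 5, 0, 1 and 18 fragments and was not tested.

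Cdc20, which activates the ubiquitin ligase that starts chromosome separation, was at 29.5 and 51.7 CPM in controls and at 12.0 and 20.6 CPM in knockouts. Plk1, a kinase of mitotic entry and spindle assembly (chromosome 7, 122159439 to 122169873), was at 26.4, 26.9, 7.49 and 7.56 CPM in that order. For Plk1 the 2 controls were nearly equal, and so were the 2 knockouts. Its log2 fold change was -1.82 (standard error 1.29; adjusted p = 0.9997, edgeR), and -1.82 without control 2, and 5 of its 7 exon entries with fragments had both knockouts below both controls. For Cdc20 the fold change was -1.32 (standard error 1.14), and 4 of 5 entries did so. The fold change of Cdc20 was -0.86 without control 2 and -1.67 without knockout 2. Neither gene passed the threshold.

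Cenpf, a kinetochore protein, was the member with an unadjusted p under 0.05 (0.0308; adjusted p = 0.9997, edgeR). Cenpf (ENSMUSG00000026605, chromosome 1, 189640606 to 189688086, minus strand) was at 25.3 and 132.8 CPM in controls and at 5.99 and 1.42 CPM in knockouts. The groups did not overlap, and the log2 fold change was -4.41 (standard error 1.51), or -2.77 without control 2. Of its fragments, 91.4% lay in 1 exon (chromosome 1, 189640606 to 189642802), which held 78, 503, 6 and 6 fragments. All 503 fragments of control 2 were in that exon, while control 1 had fragments in 6 entries.

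Cenpe, a kinesin motor of the kinetochore, was at 18.3, 91.3, 23 and 6.62 CPM. Its groups overlapped, and its log2 fold change went from -1.89 to -0.32 without control 2. Kif11, the kinesin that separates spindle poles, was at 1.31, 0, 10.2 and 8.04 CPM, and is 1 of the mitotic members with both knockouts above both controls (log2 fold change 3.72, standard error 2.36). Its fold change was 2.77 without control 2 and 8.22 without control 1, the latter against a lone control at 0. It had 81 fragments in all, and 17 of its 18 entries with fragments had one in knockout 1, against 5 in knockout 2 and 2 in control 1. Nusap1, a spindle-associated protein, was the other, with 5, 0, 6 and 8 fragments, and was not tested.

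The spindle checkpoint genes Bub1 and Bub1b, the latter encoding BubR1, did not follow each other. Bub1 was at 15.3 and 11.4 CPM in controls and at 2.25 and 0 CPM in knockouts. Bub1b was at 58.3, 0, 42.7 and 18.9 CPM in the same order. Bub1 was higher in both controls (log2 fold change -3.54, standard error 2.37), whereas Bub1b had its highest and its lowest value among the controls. The fold change of Bub1 was -2.49 without knockout 2 and -8.80 without knockout 1, the latter with a lone knockout at 0. In control 2, Bub1 had 43 fragments and Bub1b none. Those 43 fragments lay in 2 exon entries, with 39 and 4 fragments, where no other library had any. In all 10 Bub1 entries with fragments the groups overlapped.

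Aurkb and Birc5 (survivin) encode subunits of the chromosomal passenger complex. Birc5 was at 12.2, 3.70, 6.49 and 4.26 CPM, with the knockouts between the controls. Aurkb had 23, 0, 2 and 0 fragments, 96.0% of them in retained-intron exons, and was not tested. Aurka, the centrosomal Aurora kinase, had no fragment in any library. It has 0.611 kb of countable sequence, among the shortest of the members. Of its 32 exon entries, 4 hold such sequence, and fragments elsewhere in the gene could not be counted. A count of 0 allows up to 0.655 to 0.792 CPM in the countable sequence only. Expression was thus not detected with this depth and counting, rather than absent.

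Hmgb2, a chromatin protein that rises in dividing cells, had the highest level per kilobase of countable sequence of all 30 members (124.7 CPM as the mean of 4 libraries) and the smallest standard error of its fold change. It was at 301.0 and 379.6 CPM in controls and at 366.4 and 262.2 CPM in knockouts. The knockouts overlapped the controls (log2 fold change -0.12, standard error 0.54), and the sign changed without control 2 (0.06). Stmn1, stathmin, which destabilises microtubules, was at 36.2, 81.8, 20.2 and 19.1 CPM. Both knockouts lay below both controls, and the log2 fold change was -1.58 (standard error 1.04; adjusted p = 0.9997, edgeR), or -0.89 without control 2.

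**Figure D5:**
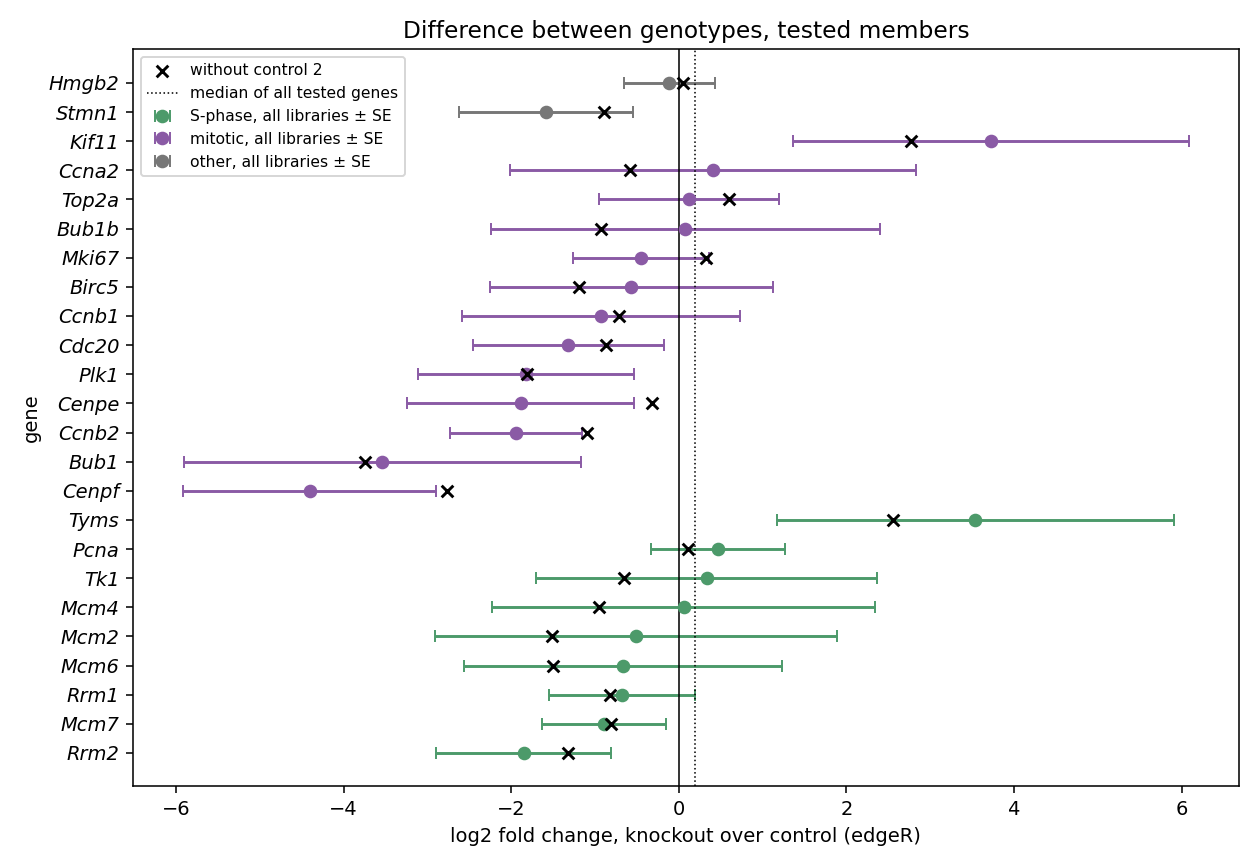
Log2 fold change of the 24 tested members, knockout over control, by edgeR with all libraries (points, bars ± standard error) and without control 2 (crosses); the dotted line is the median of all tested genes. The points run from -4.41 for Cenpf to 3.72 for Kif11, and none passed the threshold.

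Further cell cycle genes from wider lists showed the same lack of calls. Of 44 other S-phase genes 29 were tested, and 0 rose and 0 fell at an adjusted p of 0.05 by edgeR, nor did any at an unadjusted p under 0.05; 14 fold changes were positive and 15 negative, with a median of -0.002. Those with the highest mean CPM included Gins4, a subunit of the replicative helicase (152.2, 217.8, 135.0 and 167.6 CPM in control 1, control 2, knockout 1 and knockout 2), Slbp and Rpa2. Rpa2, a subunit of the single-strand DNA binding protein, had both knockouts (42.4 and 50.8 CPM) below both controls (64.8 and 73.4). Slbp, which binds histone mRNA, had them above (99.3 and 87.9 against 65.1 and 82.1 CPM). The 44 genes summed to 820 and 789 CPM in controls and to 855 and 725 CPM in knockouts, with knockout 1 highest.

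Of 59 other mitotic genes 38 were tested, again with 0 called in either direction and none at an unadjusted p under 0.05. Here 13 fold changes were positive and 25 negative, with a median of -0.44, and 7 had both knockouts below both controls while 2 had both above. Over all 12434 tested genes, 7079 fold changes were positive and 5355 negative, 11.2% of genes lay below in this way and 19.5% above. Ube2c, which hands ubiquitin to the ligase that Cdc20 activates, was at 31.9 and 142.0 CPM in controls and at 15.2 and 11.6 CPM in knockouts. That order of libraries is the one Ccnb2 had (log2 fold change -2.69, standard error 1.15; adjusted p = 0.9997, edgeR). Lmnb1, lamin B1, was at 379.0, 196.9, 600.8 and 263.6 CPM, Cks2, a Cdk-binding protein, at 167.9, 279.5, 243.6 and 186.1 CPM, and Cenpa, the centromeric histone, at 56.1, 129.1, 108.6 and 41.8 CPM. The groups of these 3 genes overlapped. The 59 genes summed to 1113 and 1416 CPM in controls and to 1451 and 762 CPM in knockouts, with knockout 1 highest. Lmnb1 alone held 600.8 CPM of the sum of knockout 1 and 196.9 CPM of that of control 2. With Lmnb1 left out of the sums, control 2 was highest and knockout 2 lowest.

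Genes of cell cycle entry and its brakes had fold changes centred near 0. Of 35 genes 27 were tested, 0 were called in either direction and none had an unadjusted p under 0.05, and the median log2 fold change was -0.03 (13 positive, 14 negative). Their summed level was 6458 and 5896 CPM in controls and 6838 and 6548 CPM in knockouts. The antiproliferative genes Btg2, at 2967, 3362, 2994 and 2727 CPM, and Btg1, at 1711, 1268, 2130 and 2585 CPM, held most of it. Tob1, of the same family, was at 445.5, 434.0, 691.1 and 460.3 CPM, and the G1 kinase Cdk6 at 340.3, 191.1, 391.9 and 170.9 CPM. For Btg1 and Tob1 both knockouts lay above both controls, for Tob1 by little in knockout 2. Foxm1, named after its values were seen, had 180 and 17 fragments in controls and 6 and 0 in knockouts (log2 fold change -4.82, standard error 2.51; adjusted p = 0.9997, edgeR).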

How the data were processed

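RNA of 4 libraries was sequenced after oligo-dT priming and SMART amplification, per the labels' protocols. The deposited values are raw fragment counts per exon entry. Per the file headers, the authors counted pairs without strand with featureCounts 2.0.1 on GRCm38 alignments with GENCODE M23. Trim Galore 0.6.7 (trimming) and STAR 2.7.9a (alignment) are named per the submitters' processing notes. Counting was per entry and a fragment overlapping several entries was dropped: the 545099 of 841606 entries that share coordinates with another held 0 fragments. Transcript use or retained introns can therefore move a gene's count, and exons of retained-intron transcripts (from GENCODE M21, which holds 99.7% of the entries) held 8.30% of fragments. Retained-intron reads and antisense RNA cannot be told apart from the gene's own level.

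Entries were summed per gene, and symbols matched 55154 of 55335 genes. Genotypes were compared with edgeR 4.0.16 (R 4.3.3; filterByExpr at a minimum count of 10, TMM, quasi-likelihood test, no covariates, Benjamini-Hochberg over all tested genes, threshold 0.05, two-sided). The test was also run on simulated data, whose spread was set and not taken from these replicates. That run does not show what could be detected here. Replicate libraries differed beyond counting noise (chi-square per degree of freedom 167.0 for controls, 60.0 for knockouts). Libraries were numbered in accession order only to name them. Alternatives were RLE and upper-quartile factors, no filter, genes with a fragment in every library, DESeq2 1.42.0, limma-voom 3.58.1, leaving out retained-intron exons, and leaving out each library. Countable length is the number of bases that 1 exon entry alone covers. The members and lists were chosen with earlier results of these data known. All members are named; of each wider cell cycle list the 4 tested genes with the highest mean CPM, of the marker lists the leading gene, Cd4 and Cd3e, with the exceptions stated. A gene that this rule takes is not reported here. The 7 T cell, macrophage, neutrophil, keratinocyte, fibroblast, endothelial and mast cell marker lists served as a check.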

Additional observations from a re-analysis of the deposited data

How the results depend on the processing

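No member was called under any of the 11 alternatives. Over all genes, 27 were called without a filter on low counts, 17 by DESeq2, and between 0 and 4 with 1 library left out. The S-phase median log2 fold change was 0.50 by limma-voom, beside 0.44 over all tested genes. It lay between -0.82 and 1.57 with 1 library left out, where the median of all tested genes lay between -0.01 and 1.72. With the test limited to genes seen in all 4 libraries, the mitotic median was -1.35 over the 9 members kept. The S-phase median was then -0.69 over 6 members, and that of all tested genes was -0.065. The difference in the log2 S-phase to mitotic ratio was 0.27 without retained-intron exons and between -0.28 and 1.46 with 1 library left out. Under 2 alternatives chosen after seeing the data, it was 2.58 with every member weighted equally and 1.04 without Mcm7 and Mki67. The causes were not tested.

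Of the 24 tested members, 14 kept their sign under every alternative that tested them, and 18 of 254 values changed sign. By limma-voom, Mcm2 was at 2.71. Without a filter, Hmgb2 was at 0.013. With 1 library left out, log2 fold changes lay between -2.02 and 10.23 for Mcm2, -0.95 and 11.01 for Mcm4, -1.60 and 1.57 for Mcm6, -0.66 and 6.03 for Tk1, -1.25 and 0.33 for Mki67, -0.18 and 0.60 for Top2a, -0.59 and 7.61 for Ccna2, -1.19 and 0.60 for Birc5, -0.93 and 9.97 for Bub1b, and -0.33 and 0.19 for Hmgb2. The highest values of Mcm2, Mcm4, Ccna2 and Bub1b compare the knockouts with a lone control at 0 fragments.

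No paired analysis was possible because the labels number no replicates and state no pairing. With these depths and this counting, 6 of the 30 members had too few fragments to test.

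Leaving out a library leaves 1 library in its group, which is then assumed to vary like the other group.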

Other observations

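Among markers of other cell types, 9 neutrophil markers, led by Mmp8, summed to 404.5 and 269.2 CPM in controls and 1760 and 939.2 in knockouts. The 10 fibroblast markers, led by Mmp2, summed to 12593 and 3006 CPM in controls and 5806 and 6017 in knockouts. The 7 endothelial markers, led by Kdr, summed to 40.6 and 6.60 CPM and to 24.5 and 43.7 CPM, and the 6 mast cell markers, led by Cpa3, to 170.9 and 97.4 CPM and to 135.0 and 374.5 CPM. S100a9 and Ly6g were at 0 in all 4 libraries.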
